A study of Mus musculus with 6 samples.

Results

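Neurexins, neuroligins, leucine-rich repeat transmembrane proteins and cerebellins are proteins that join the presynaptic and postsynaptic sides of a synapse. The 9 genes described here, chosen by name from among the 49568 gene names in the data, are Nrxn2, Nrxn3, Nlgn1, Nlgn2, Nlgn3, Lrrtm1, Lrrtm2, Cbln1 and Cbln2. Their RNA was measured in 6 samples of 15 neurons each, aspirated from slices that held the preBötzinger complex (preBötC), a breathing-rhythm region of the ventral medulla. All samples came from postnatal day 2 offspring of a Dbx1CreERT2 driver and a Rosa26tdTomato reporter, and each came from a different mouse. The 3 Dbx1 samples held neurons that fluoresced with tdTomato after tamoxifen was given to the dam during gestation. The 3 non-Dbx1 samples, from mice of the same cross, held cells taken for neurons by their somata that lacked tdTomato. The non-Dbx1 group is therefore defined by the absence of a label, which a Dbx1-derived cell that did not recombine would also lack. Because neurons were pooled, fewer cells that express a gene and less RNA per cell cannot be told apart.

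Neurexins are presynaptic receptors, each made from long (alpha) and short (beta) promoters of the same gene and spliced into many forms. Across the synaptic cleft they bind neuroligins and LRRTM proteins, or they bind secreted cerebellins, which in turn bind delta glutamate receptors. Neuroligin 1 is known mainly from excitatory synapses, neuroligin 2 from inhibitory synapses and neuroligin 3 from both kinds. The preBötC holds excitatory and inhibitory neurons side by side, and Dbx1-derived neurons are a main source of its glutamatergic cells.

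Nlgn1 and Lrrtm1 were the only members whose RPKM (reads scaled to the exon length of a gene and to the reads of its sample) did not overlap between the groups, and Nlgn2 is the paralog whose balance with Nlgn1 is given below. Their promoter sequences are shown for that reason, from RefSeq on GRCm38.p6, each running 5′ to 3′ on the gene's strand from 250 bases before a transcription start to 50 bases after it. Capitals mark CG dinucleotides.
Nlgn1, outer start, chr3:26331860-26332159, minus strand: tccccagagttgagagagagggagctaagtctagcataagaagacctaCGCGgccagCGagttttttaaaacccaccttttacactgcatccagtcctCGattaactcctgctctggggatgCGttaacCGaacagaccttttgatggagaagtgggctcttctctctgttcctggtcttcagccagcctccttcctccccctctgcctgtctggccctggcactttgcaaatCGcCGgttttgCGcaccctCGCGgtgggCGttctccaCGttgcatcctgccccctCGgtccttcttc
Nlgn1, inner start, chr3:26153937-26154236, minus strand: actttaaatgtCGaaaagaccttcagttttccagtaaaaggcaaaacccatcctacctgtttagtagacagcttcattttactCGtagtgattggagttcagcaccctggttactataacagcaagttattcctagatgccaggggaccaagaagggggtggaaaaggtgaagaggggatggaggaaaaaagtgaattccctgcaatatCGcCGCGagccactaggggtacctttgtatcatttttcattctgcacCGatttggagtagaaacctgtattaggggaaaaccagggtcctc
Lrrtm1, chr6:77242227-77242526, plus strand: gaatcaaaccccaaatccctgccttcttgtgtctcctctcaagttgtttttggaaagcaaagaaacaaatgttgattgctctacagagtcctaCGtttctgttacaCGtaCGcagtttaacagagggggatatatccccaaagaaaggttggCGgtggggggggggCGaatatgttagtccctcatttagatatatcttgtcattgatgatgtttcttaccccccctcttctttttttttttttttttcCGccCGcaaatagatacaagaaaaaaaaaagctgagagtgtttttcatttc
Nlgn2, chr11:69837735-69838034, minus strand: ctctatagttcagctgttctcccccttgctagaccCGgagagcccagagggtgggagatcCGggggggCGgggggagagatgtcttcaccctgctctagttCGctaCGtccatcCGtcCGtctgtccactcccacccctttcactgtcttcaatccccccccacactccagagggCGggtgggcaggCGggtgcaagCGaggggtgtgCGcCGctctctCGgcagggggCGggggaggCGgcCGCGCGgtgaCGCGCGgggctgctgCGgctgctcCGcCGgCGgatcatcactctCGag
The Nlgn2 promoter held 26 CG dinucleotides, more than 83.1% of the 32851 mouse promoters of the same length. The outer Nlgn1 promoter held 14 (above 63.7% of promoters), the Lrrtm1 promoter 7 (above 47.9%) and the inner Nlgn1 promoter 6 (above 43.6%), beside a median of 7 over all promoters. On either strand, the letters GGGCGG (a GC box) were found in the Lrrtm1 and Nlgn2 promoters and in 35.7% of all promoters, and CCAAT was found in the inner Nlgn1 promoter and in 37.4% of all. TATAAA (13.6% of all promoters) and TGACGTCA (1.79%) were in none of these windows. Promoter entries were used for 4 of the 9 genes, these 3 and Nrxn3, which does not show that the others lack one. RPKM counts reads over a whole gene and does not tell which start was used.

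Between 6464675 and 9432958 reads per sample lay on genes, a depth recovered from the smallest steps in RPKM. The groups were compared in limma, as log2(RPKM + 1), for the 17614 genes that were above 0 RPKM in 3 or more samples. L2FC is the difference between the group means on that scale, positive where the Dbx1 samples were higher, and calls were made at a false discovery rate (FDR) under 0.1. The 3 values of a group are given in the order of replicates 1, 2 and 3. Neuron markers (Tubb3, Snap25, Syn1, Eno2, Map2 and Rbfox3) summed to 993 to 1708 RPKM in every sample. Some non-Dbx1 samples also carried markers of other cells. Non-Dbx1 replicate 1 had oligodendrocyte markers summing to 372 RPKM, against 4.38 to 24.7 in the other samples. Erythroid markers summed to 90.3, 218 and 507 RPKM in Dbx1 samples, against 14058, 1198 and 733 in non-Dbx1 samples, without overlap. Non-Dbx1 replicate 2 had endothelial markers at 68.4, against at most 2.51 elsewhere. Most of that sum was Cldn5 (63.7), with Kdr at 3.98, while Cdh5 (0.646) and Pecam1 (0.0343) were higher in other samples. Non-Dbx1 replicate 3 had cholinergic motor neuron markers at 54.4, against at most 9.43. Most of that sum was Slc18a3 (37.0), with Isl1 at 13.3 and Chat at 3.999, each highest in that sample. Mnx1 was 0 there and above 0 only in non-Dbx1 replicate 1 (0.145). Glutamatergic markers, mostly Slc17a6, summed to 48.5, 128 and 54.9 in Dbx1 samples, against 31.9, 35.996 and 13.6 in non-Dbx1 samples, and GABA and glycine markers to between 45.7 and 143 in every sample. Astrocyte markers summed to 21.4 to 39.5 RPKM and microglia markers to at most 2.97, with Tmem119 at 0 throughout.

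All 9 genes passed the filter, and 8 of them, all but Cbln1, had RPKM above 0 in every sample. None of the 9 was called in limma, where 1 of all tested genes (0.00568%) was. An unadjusted p under 0.05 was reached by 1 member with the Dbx1 samples higher (Lrrtm1), beside 2.73% of all tested genes, and by 1 with the non-Dbx1 samples higher (Cbln2), beside 2.48%. Groups did not overlap for 2 members, Nlgn1 and Lrrtm1, each with the Dbx1 samples higher (5.35% of all tested genes), and for 0 members in the other direction (5.24%). L2FC was above 0 for 3 members and below 0 for 6, with a median of −0.38, beside a median of 0.01 over all tested genes. The median of the members' mean RPKM was 10.3, against 3.315 over all tested genes.

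**Figure D1:**
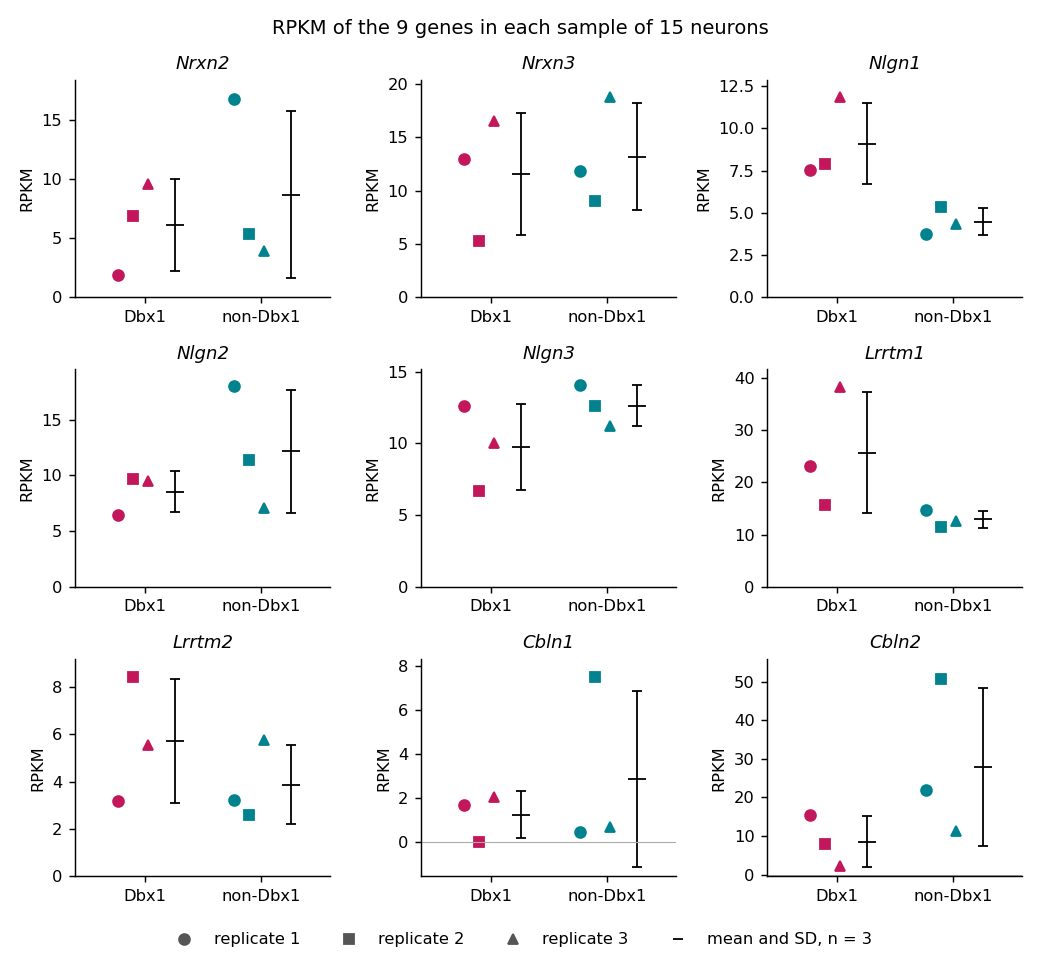
RPKM of each of the 9 genes (y axes, each with its own range) in the 3 Dbx1 and 3 non-Dbx1 samples; each point is a sample of 15 neurons from 1 mouse and the black bar and whiskers are the group mean ± SD. Only for Nlgn1 and Lrrtm1 do all 3 Dbx1 points lie above all 3 non-Dbx1 points, while Cbln2 spans 2.29 to 50.8 RPKM.

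Of the neurexins, Nrxn2 (ENSMUSG00000033768, chr19:6418731-6544169, plus strand, GRCm38) measured 1.85, 6.87 and 9.58 RPKM in Dbx1 samples, against 16.8, 5.31 and 3.89 in non-Dbx1 samples. The lowest value was a Dbx1 sample and the highest was non-Dbx1 replicate 1, 9.05 times higher, while the other 2 Dbx1 samples lay above the other 2 non-Dbx1 samples. Means were 6.10 ± 3.92 and 8.66 ± 7.06 RPKM (SD, n = 3). The L2FC was −0.40 (standard error 0.670, limma FDR = 0.969), with a 95% interval from −1.93 to 1.13. Its sign rested on single samples, since it was 0.16 without Dbx1 replicate 1 and also 0.16 with non-Dbx1 replicate 1 left out. The latter had the highest sums of oligodendrocyte and erythroid markers. The part of those cells in the Nrxn2 value was not tested.

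Nrxn3 (ENSMUSG00000066392, chr12:88722876-90334935, plus strand) measured 12.95, 5.28 and 16.5 RPKM in Dbx1 samples, against 11.8, 8.99 and 18.8 in non-Dbx1 samples. The groups overlapped over most of their range, with means of 11.6 ± 5.73 and 13.2 ± 5.03 RPKM (SD, n = 3). The L2FC was −0.24 (standard error 0.467, limma FDR = 0.973), with an interval from −1.31 to 0.82. It became 0.20 without Dbx1 replicate 2 and 0.03 with non-Dbx1 replicate 3 left out. Nrxn3 made up 87.5%, 43.5% and 63.3% of the summed RPKM of Nrxn2 and Nrxn3 in Dbx1 samples, against 41.4%, 62.9% and 82.8% in non-Dbx1 samples. Each group held 1 sample in which Nrxn2 was the higher of the pair and 1 in which Nrxn3 made up at least 82.8% of the sum. The difference between the groups in log2 of the Nrxn3 to Nrxn2 ratio was 0.16 (exact two-sided permutation test, p = 0.70).

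The cerebellins are secreted and link neurexins to delta receptors. Cbln2 (ENSMUSG00000024647, chr18:86711110-86718283, plus strand) had the widest range of the members that were above 0 throughout, from 2.29 to 50.8 RPKM, a factor of 22.2. It measured 15.4, 7.999 and 2.29 RPKM in Dbx1 samples, against 21.8, 50.8 and 11.3 in non-Dbx1 samples. The groups overlapped, since Dbx1 replicate 1 lay above non-Dbx1 replicate 3. Means were 8.58 ± 6.59 and 28.0 ± 20.4 RPKM (SD, n = 3), and the non-Dbx1 mean was 3.26 times the Dbx1 mean. Its L2FC of −1.63 (standard error 0.682) was the largest in size of the 9, with an interval from −3.19 to −0.07. Its limma FDR was 0.912 (unadjusted p = 0.0420), while an exact permutation test returned p = 0.20. The L2FC was −1.09 without non-Dbx1 replicate 2 and −1.01 without Dbx1 replicate 3, and neither had an unadjusted p under 0.05. With single samples left out, the limma p stayed under 0.05 only without Dbx1 replicate 1 (0.0146) or non-Dbx1 replicate 3 (0.0171).

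Cbln1 (ENSMUSG00000031654, chr8:87468405-87472609, minus strand) was the lowest member on average. It measured 1.68, 0 and 2.02 RPKM in Dbx1 samples, against 0.424, 7.48 and 0.667 in non-Dbx1 samples. These values rested on 83, 0 and 87 reads and on 17, 397 and 39 reads. In Dbx1 replicate 2 no read was found, where 3 reads would have given 0.0643 RPKM, a limit that covers counting error only. A single sample, non-Dbx1 replicate 2, held the highest value of Cbln1 and also of Cbln2. It is also the sample where the endothelial marker Cldn5 was high, and the part of such cells in these values was not tested. The L2FC of Cbln1 was −0.44 (standard error 0.807, limma FDR = 0.972), with an interval from −2.28 to 1.41, and it became 0.38 without that sample and 0.06 without Dbx1 replicate 2. The difference between the groups in log2 of the Cbln2 to Cbln1 ratio was −1.20 (exact permutation test, p = 0.50), and it was −0.27 without Dbx1 replicate 3 and −1.80 without Dbx1 replicate 2. Of a list of 4 delta receptor and further cerebellin genes, 3 were tested, with 0 at an unadjusted p under 0.05. Grid1, a delta receptor, measured 1.88, 1.87 and 1.07 RPKM in Dbx1 samples, against 0.725, 0.325 and 2.58 in non-Dbx1 samples (L2FC 0.36, limma FDR = 0.966). Cbln4, a further cerebellin, measured 46.0, 38.9 and 83.1 RPKM in Dbx1 samples, against 34.5, 21.8 and 51.4 in non-Dbx1 samples (L2FC 0.63, limma FDR = 0.936).

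Of the neuroligins, Nlgn1 (ENSMUSG00000063887, chr3:25426215-26332460, minus strand) measured 7.555, 7.89 and 11.9 RPKM in Dbx1 samples, against 3.74, 5.35 and 4.33 in non-Dbx1 samples. Every Dbx1 sample lay above every non-Dbx1 sample. Means were 9.10 ± 2.39 and 4.47 ± 0.810 RPKM (SD, n = 3), a ratio of 2.03, from 471 to 1605 reads per sample. This gave an L2FC of 0.87 (standard error 0.399) and an interval from −0.04 to 1.78 that reached 0. The limma FDR was 0.912 (unadjusted p = 0.0593), and the exact two-sided permutation test gave p = 0.10, the smallest that 3 samples against 3 allow. Its L2FC stayed above 0 when any sample was left out, at 0.68 without Dbx1 replicate 3, 0.77 without non-Dbx1 replicate 1, 0.98 without non-Dbx1 replicate 2 and 0.86 without non-Dbx1 replicate 3.

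Nlgn2 (ENSMUSG00000051790, chr11:69823122-69837784, minus strand) measured 6.41, 9.69 and 9.49 RPKM in Dbx1 samples, against 17.99, 11.4 and 7.03 in non-Dbx1 samples. The 2 highest values were non-Dbx1 samples, and the third non-Dbx1 sample lay within the Dbx1 range. Means were 8.53 ± 1.84 and 12.1 ± 5.52 RPKM (SD, n = 3), and the L2FC was −0.39 with an interval from −1.33 to 0.55 (limma FDR = 0.953). As for Nrxn2, the highest value was in non-Dbx1 replicate 1. Without that sample, whose other cell markers were not tested for a part in this, the L2FC of Nlgn2 was −0.08. Nlgn3 (ENSMUSG00000031302, chrX:101299168-101325963, plus strand) measured 12.6, 6.67 and 9.9995 RPKM in Dbx1 samples, against 14.1, 12.6 and 11.2 in non-Dbx1 samples. Means were 9.75 ± 2.97 and 12.6 ± 1.44 RPKM (SD, n = 3), with an L2FC of −0.38 and an interval from −1.16 to 0.41 (limma FDR = 0.951). Of the merged exon bases of Nlgn3, 41.2% also belong to exons of the predicted gene Gm21986 on the same strand, so reads there could not be assigned to Nlgn3 alone. Of those of Nlgn1, 9.16% lie in exons of the antisense gene A830092H15Rik, and strand was not used in counting.

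Summed over the 3 neuroligins, RPKM was 27.4 ± 3.62 in Dbx1 samples, against 29.2 ± 6.62 in non-Dbx1 samples (SD, n = 3). Nlgn1 held 28.4%, 32.5% and 37.8% of it in Dbx1 samples, against 10.5%, 18.2% and 19.2% in non-Dbx1 samples, without overlap. Nlgn2 held 24.1%, 40.0% and 30.3% against 50.2%, 38.8% and 31.1%, and Nlgn3 held 47.4%, 27.5% and 31.9% against 39.3%, 43.0% and 49.7%, so each of these overlapped between the groups.

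**Figure D2:**
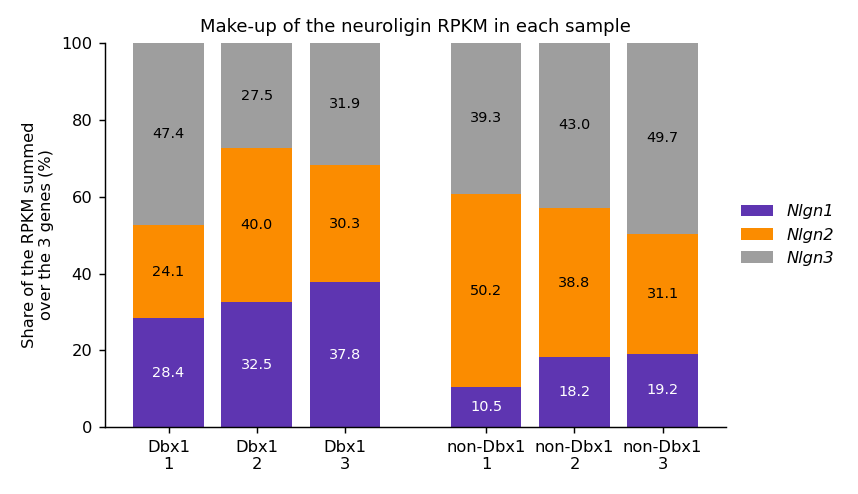
Share of the summed neuroligin RPKM (percent, y axis) held by Nlgn1, Nlgn2 and Nlgn3 in each of the 6 samples (x axis); the 3 parts of a bar add to 100. The Nlgn1 part is 28.4% or more in every Dbx1 sample and 19.2% or less in every non-Dbx1 sample.

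The ratio of Nlgn2 to Nlgn1 was 0.849, 1.23 and 0.801 in Dbx1 samples, against 4.81, 2.13 and 1.62 in non-Dbx1 samples. Nlgn2, known from inhibitory synapses, was above Nlgn1, known from excitatory synapses, in each non-Dbx1 sample and in 1 of the 3 Dbx1 samples. On the scale of log2((RPKM + 1)/(RPKM + 1)) the means were −0.08 ± 0.301 and 1.19 ± 0.731 (SD, n = 3), a difference of −1.26 (exact two-sided permutation test, p = 0.10, adjusted p = 0.25 over 5 ratios). The Nlgn3 to Nlgn1 ratio was 1.67, 0.845 and 0.844 in Dbx1 samples, against 3.76, 2.36 and 2.59 in non-Dbx1 samples, with a difference of −1.24 (exact permutation test, p = 0.10, adjusted p = 0.25). With merged exon lengths (described below) the Nlgn2 to Nlgn1 ratio was 0.732, 1.06 and 0.691 against 4.15, 1.84 and 1.40. Both ratios and the Nlgn1 share given above use the same Nlgn1 values. They are therefore not separate evidence from each other or from the Nlgn1 level. Within a library the ratio does not depend on depth, and its group difference does not depend on the exon lengths beyond the pseudocount.

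The LRRTM proteins are postsynaptic partners of neurexins at excitatory synapses. Lrrtm1 (ENSMUSG00000060780, chr6:77242689-77257791, plus strand) measured 23.1, 15.7 and 38.3 RPKM in Dbx1 samples, against 14.7, 11.5 and 12.5 in non-Dbx1 samples. Every Dbx1 sample lay above every non-Dbx1 sample, but Dbx1 replicate 2 and non-Dbx1 replicate 1 were close. Means were 25.7 ± 11.5 and 12.9 ± 1.65 RPKM (SD, n = 3), a ratio of 1.99, from 837 to 2346 reads per sample. This gave an L2FC of 0.86 (standard error 0.358) and an interval from 0.04 to 1.68. The limma FDR was 0.912 (unadjusted p = 0.0414), while the exact permutation test reached its smallest p = 0.10. Without Dbx1 replicate 3, its highest sample, the L2FC was 0.54, over 1.5 times smaller (limma unadjusted p = 0.160). With single samples left out, that p stayed under 0.05 only without Dbx1 replicate 2 (0.0135) or non-Dbx1 replicate 1 (0.0485). Lrrtm1 lies within the span of Ctnna2 on the other strand, which measured 29.7, 34.2 and 13.2 RPKM in Dbx1 samples, against 14.0, 17.3 and 28.8 in non-Dbx1 samples. No exon base of Lrrtm1 lies in an exon of another gene, but strand was not used in counting. Any part of unspliced Ctnna2 RNA in the Lrrtm1 reads was not tested. As for Nlgn1 and Lrrtm1, the glutamatergic marker sum was higher in every Dbx1 sample, and its part in either difference was not tested.

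Lrrtm2 (ENSMUSG00000071862, chr18:35209003-35215024, minus strand) was low among the 9 members and did not separate the groups. It measured 3.20, 8.42 and 5.56 RPKM in Dbx1 samples, against 3.22, 2.60 and 5.745 in non-Dbx1 samples, on 118 to 359 reads. Means were 5.72 ± 2.61 and 3.855 ± 1.67 RPKM (SD, n = 3), and the L2FC was 0.45 with an interval from −0.75 to 1.65 (limma FDR = 0.960). Lrrtm1 held between 65.1% and 87.9% of the summed RPKM of the pair in every sample. The difference between the groups in log2 of the Lrrtm2 to Lrrtm1 ratio was −0.41 (exact permutation test, p = 0.60), from −0.99 without Dbx1 replicate 2 to −0.11 without Dbx1 replicate 3. The sum of the pair was 26.3, 24.1 and 43.9 RPKM in Dbx1 samples, against 17.9, 14.1 and 18.3 in non-Dbx1 samples.

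**Figure D3:**
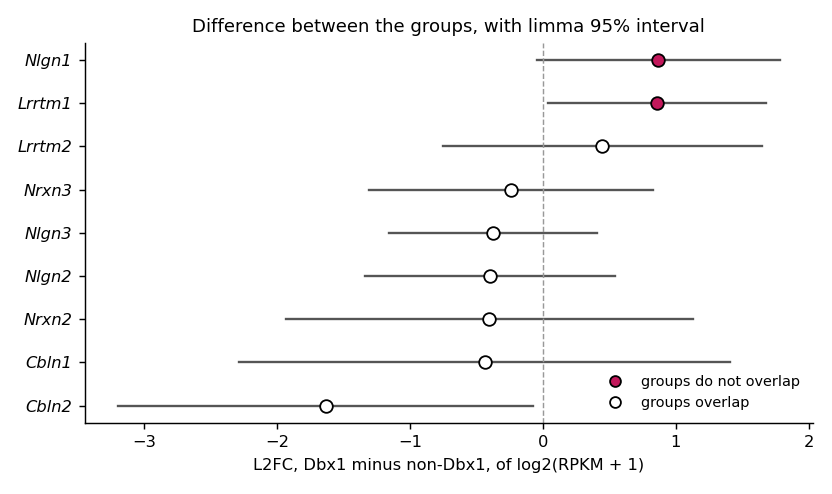
L2FC of each member (x axis, log2 scale of RPKM + 1, above 0 for higher levels in Dbx1 samples) with its limma 95% interval. The intervals of Lrrtm1 (0.04 to 1.68) and Cbln2 (−3.19 to −0.07) leave out 0 before adjustment, that of Nlgn1 starts at −0.04, and the other 6 span 0.

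Levels can be compared between genes only per exon length, and the deposited RPKM used an exon length that, for 5 of the 9 members, equals the sum of all distinct annotated exons, with bases shared by several exons counted repeatedly. For the other members, Nrxn3 and Lrrtm2 among them, the length given is the smallest that made their reads whole. For Lrrtm1 the length is 8793 bases, against 3033 when overlapping exons are merged, for Nrxn3 it is 24581 against 12605, and for Lrrtm2 it is 5665 against 6022. The order of the mean level over the 6 samples was the same with either length, running from Lrrtm1 through Cbln2, Nrxn3, Nlgn3, Nlgn2, Nrxn2, Nlgn1 and Lrrtm2 to Cbln1. In deposited RPKM the means were 19.3 ± 10.2 for Lrrtm1, 18.3 ± 17.2 for Cbln2, 12.4 ± 4.90 for Nrxn3, 11.2 ± 2.61 for Nlgn3 and 10.3 ± 4.18 for Nlgn2 (SD, n = 6). Lower means were 7.38 ± 5.30 for Nrxn2, 6.79 ± 2.995 for Nlgn1, 4.79 ± 2.21 for Lrrtm2 and 2.05 ± 2.77 for Cbln1. With merged exon length, Lrrtm1 had 56.0 ± 29.5, Cbln2 38.1 ± 35.9, Nrxn3 24.2 ± 9.56 and Nlgn3 13.5 ± 3.14 RPKM. Nlgn2 had 12.9 ± 5.23, Nrxn2 12.7 ± 9.08, Nlgn1 9.84 ± 4.34, Lrrtm2 4.51 ± 2.08 and Cbln1 4.18 ± 5.66.

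Of the 8 pairs of neighbours in that order, 0 passed a test against the spread between samples, at an adjusted p under 0.1. The exact sign-change test cannot go below p = 0.031 with 6 samples. After adjustment, a single pair higher in every sample could therefore not pass on its own. The result does not show that neighbours are alike. On deposited RPKM, the exact two-sided sign-change test over the 6 samples gave adjusted p from 0.50 to 0.844 for these pairs. The lowest p was that of Nlgn2 over Nrxn2, higher in 5 of 6 samples by 0.60 on the log2 scale (exact p = 0.0625). Nrxn2 stood above Nlgn1 in mean RPKM although it was higher in 1 of 6 samples, which was non-Dbx1 replicate 1. With merged exon length, Nrxn3 was above Nlgn3 by 0.73 and Nlgn1 above Lrrtm2 by 0.97 on the log2 scale in 6 of 6 samples (exact p = 0.031 each, the smallest possible, adjusted p = 0.125). On those lengths Nlgn2 was above Nrxn2 in 4 of 6 samples, by 0.22 (exact sign-change test, p = 0.41). Nrxn2 was then above Nlgn1 in 4 of 6 samples. Lrrtm1 was the highest member in all 3 Dbx1 samples. In the non-Dbx1 samples the highest was Cbln2 in replicates 1 and 2 and Nrxn3 in replicate 3.

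**Figure D4:**
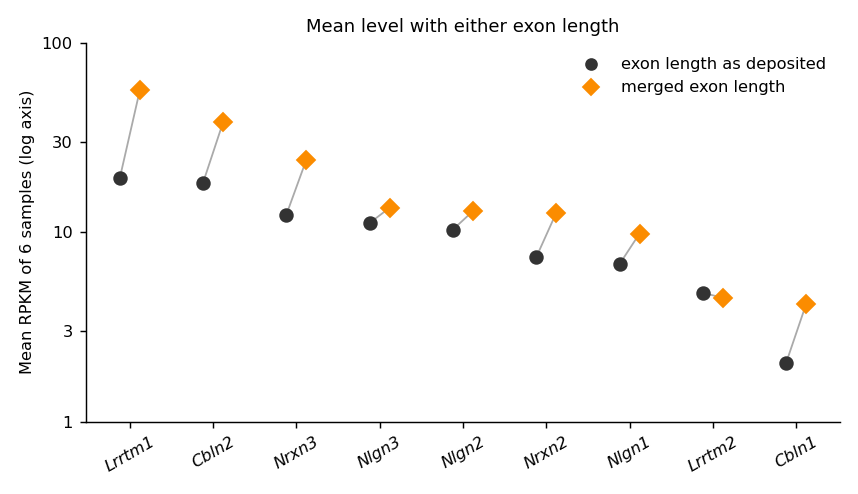
Mean RPKM over the 6 samples for each member (log axis) with the exon length as deposited (circles) and with merged exons (diamonds). The order of the 9 genes is the same on both scales, and the gap between the scales is widest for Lrrtm1, from 19.3 to 56.0.

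Synaptic genes related to the members were taken in 7 lists of 76 genes, called partners here, of which 73 passed the filter. Not all of them bind a member, since the lists also hold paralogs and other families of synaptic organizers. None of the 73 was called, the lowest limma FDR being 0.787. An unadjusted p under 0.05 was reached by 4 with the Dbx1 samples higher (2.73% of all tested genes) and 2 with the non-Dbx1 samples higher (2.48%). Groups did not overlap for 7 and 6 partners in these directions (5.35% and 5.24% of all tested genes). L2FC was above 0 for 40 partners and below 0 for 33, with a median of 0.05.

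Of 19 other postsynaptic leucine-rich organizers, 3 had p under 0.05 with the Dbx1 samples higher and 0 in the other direction, beside 2.73% and 2.48% of all tested genes. Groups did not overlap for 3 with the Dbx1 samples higher and 1 with the non-Dbx1 samples higher (5.35% and 5.24% of all tested genes). The median L2FC of the list was 0.01. The lowest p of the list was that of Lrfn5, a synaptic adhesion molecule, at 15.5, 13.9 and 22.4 RPKM in Dbx1 samples, against 7.87, 6.15 and 5.92 in non-Dbx1 samples. Its groups did not overlap, with an L2FC of 1.24 ± 0.336 (standard error, limma FDR = 0.787). The other two genes, Slitrk2 (L2FC 1.03) and Slitrk3 (L2FC 1.54), are named because the count is small, after their values were seen. The most abundant of this list, Lrrc4b and Slitrk5, had an L2FC of −0.12 and −0.50.

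Among 11 tested presynaptic adhesion receptors other than neurexins, the most abundant was Ptprs, a receptor phosphatase that also organizes presynaptic terminals. It measured 26.1, 34.6 and 27.8 RPKM in Dbx1 samples, against 72.0, 44.9 and 40.7 in non-Dbx1 samples, without overlap (L2FC −0.78, standard error 0.283, limma FDR = 0.912). It was the 1 gene of the list with p under 0.05 (2.48% of all tested genes with the non-Dbx1 samples higher). L2FC was above 0 for 7 and below 0 for 4. Groups did not overlap for 1 gene with the Dbx1 samples higher (5.35% of all tested genes). They also did not overlap for 1 with the non-Dbx1 samples higher (5.24%). Adgrl1, a latrophilin, had an L2FC of 0.20. Among 13 tested modulators of neurexins and neuroligins, 5 had an L2FC above 0 and 8 below, with a median of −0.22. An unadjusted p under 0.05 was reached by 1 of them, with the non-Dbx1 samples higher (2.48% of all tested genes). Groups did not overlap for 1, also with the non-Dbx1 samples higher (5.24%). Nxph4, a secreted neurexophilin of the family that binds alpha-neurexins, measured 22.4, 46.6 and 56.2 RPKM in Dbx1 samples, against 60.9, 100.8 and 68.9 in non-Dbx1 samples, without overlap (L2FC −0.93, standard error 0.368, limma FDR = 0.912). Clstn1, a calsyntenin, was the most abundant of them and overlapped, from 58.2 to 137 RPKM in the Dbx1 samples and 80.8 to 131 in the non-Dbx1 samples.

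Among 10 presynaptic scaffolds, 1 had p under 0.05 with the Dbx1 samples higher (2.73% of all tested genes). Groups did not overlap for 2, each with the Dbx1 samples higher (5.35% of all tested genes). Ppfia2, a liprin-alpha, measured 24.2, 14.3 and 26.0 RPKM in Dbx1 samples, against 7.49, 10.98 and 9.53 in non-Dbx1 samples (L2FC of 1.09 with a standard error of 0.339, limma FDR = 0.859). Lin7b, part of the complex that neurexin-bound CASK assembles, measured 26.2, 27.5 and 41.7 against 18.1, 21.9 and 23.1 RPKM (L2FC 0.55), and Lin7c overlapped (L2FC 0.45). Of 14 postsynaptic scaffolds, 0 had p under 0.05 in either direction. Groups did not overlap for 3 of them, Dlg3, Dlgap3 and Dlgap4, with the non-Dbx1 samples higher (5.24% of all tested genes). These were named after their values were seen. Gphn, which encodes the gephyrin scaffold of inhibitory synapses, measured 43.1, 23.0 and 32.1 RPKM in Dbx1 samples, against 38.5, 19.8 and 35.0 in non-Dbx1 samples (L2FC 0.08, limma FDR = 0.989). Dlg4, the PSD-95 scaffold that binds neuroligin 1 at excitatory synapses, measured 0.850, 1.34 and 2.36 RPKM against 5.59, 8.08 and 1.097 (L2FC −1.04, limma FDR = 0.936). Shank1 had an L2FC of 0.02. Of the 3 KH-domain splice regulators of neurexins, 0 had p under 0.05. Groups did not overlap for 1, with the Dbx1 samples higher (5.35% of all tested genes). Khdrbs2 measured 9.08, 7.12 and 7.55 RPKM in Dbx1 samples, against 1.56, 3.605 and 5.61 in non-Dbx1 samples, without overlap (L2FC 1.055, standard error 0.493, limma FDR = 0.912). Khdrbs1 and Khdrbs3 had an L2FC of −0.25 and −0.07. Splice forms of the neurexins were not analysed here, since each gene has a single value.

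**Figure D5:**
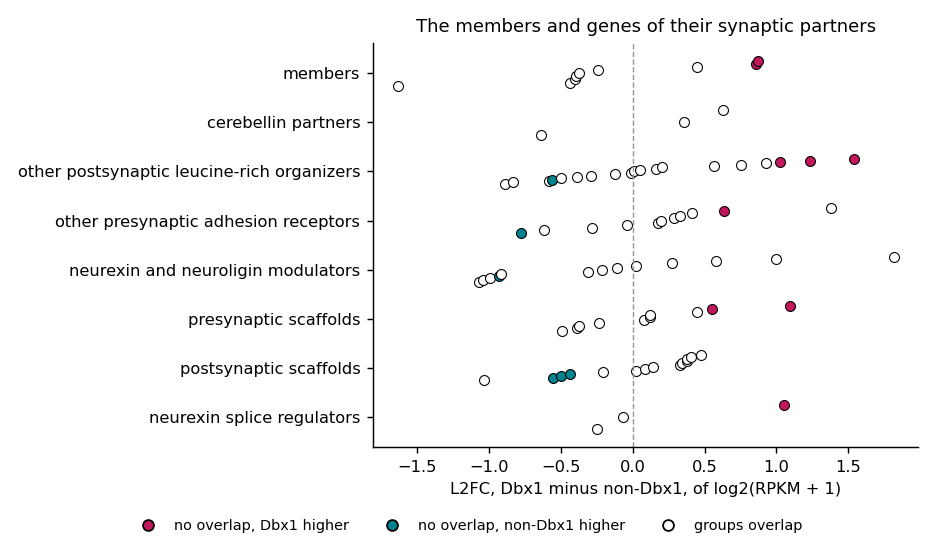
L2FC (x axis, log2 scale of RPKM + 1) of the 9 members and of the tested partner genes, 1 row per list and 1 point per gene, with genes whose groups did not overlap marked. The lists straddle 0, with 40 of the 73 partners above it and a median of 0.05.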

How the data were processed

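RNA of 6 pooled samples was measured by RNA-Seq, 3 Dbx1 and 3 non-Dbx1, each a single pool from a separate mouse. The spread between samples that the p-values rest on therefore mixes differences between animals, in the cells drawn and in amplification. These parts cannot be told apart in this design. The authors amplified complementary DNA, aligned reads to mm10 (TopHat2), assigned them to genes without regard to strand (HTSeq) and deposited RPKM per gene name, unscaled between samples. Tool versions are not given in the sources used here.

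Counts were not used by the test, so log2(RPKM + 1) was fitted in limma 3.58.1 (R 4.3.3, eBayes with trend) over all 17614 genes above 0 in at least 3 samples. Two-sided p were adjusted by Benjamini-Hochberg, with an FDR threshold of 0.1. Ratios and neighbours used exact permutation and sign-change tests (Python 3.11.15, scipy 1.17.1). Read counts were worked back from the smallest RPKM steps. The annotated exon length gave whole reads, within 0.02, for 9828 of the 27067 genes above 0 in any sample. For 17200 others, the smallest length that gave whole reads was taken, searched up to 40000 bases. The total of 99.9% of genes with whole reads therefore follows in part from that fit and is not a separate check. Annotated exon lengths and positions came from GENCODE vM21 (GRCm38). The members and partner lists were chosen with earlier results of these data known. All members were described, with the 2 most abundant genes and the lowest p of each partner list, and Grid1, Dlg4 and Gphn; 1 gene under this rule is not reported here. Merged exon length was added after seeing the data.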

Additional observations from a re-analysis of the deposited data

How the results depend on the processing

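None of the 9 members and none of the partner genes was called in limma under any of 14 alternatives, with 0 to 2 members and 5 to 10 partners at an unadjusted p under 0.05. No member had such a p without Dbx1 replicate 3 or without non-Dbx1 replicate 2. The number called over all genes, 1 in the report, was 0 with all genes above 0 in at least 1 sample, 3 without a mean-variance trend, 0 with a pseudocount of 0.1, 0 with voom on recovered reads and 0 with the replicate block. It ranged from 0 to 1 when single samples were left out, and was 0 without non-Dbx1 replicate 3. The cause of these shifts was not tested. With the replicate block 819 genes had an unadjusted p under 0.05, against 916 without it. Same-numbered samples came from different mice and their deviations correlated by −0.11 to 0.02, so the number was not used as a pairing. L2FC kept its sign for Nlgn1 (0.68 to 1.02), Lrrtm1 (0.54 to 1.15), Lrrtm2 (0.16 to 0.75), Nlgn2 (−0.71 to −0.08), Nlgn3 (−0.56 to −0.15) and Cbln2 (−2.17 to −1.01). It changed sign with 1 sample left out for Nrxn2 (0.16 without either group's replicate 1, −0.79 to 0.16 in all), Nrxn3 (0.20 without Dbx1 replicate 2, 0.03 without non-Dbx1 replicate 3, −0.54 to 0.20 in all) and Cbln1 (0.06 without Dbx1 replicate 2, 0.38 without non-Dbx1 replicate 2, −0.91 to 0.38 over single samples left out and −2.07 with voom). The Nrxn3 to Nrxn2 difference became −0.54 without replicate 1 of the Dbx1 samples and −0.44 without that of the non-Dbx1 samples, in a range of −0.54 to 0.80. Differences in the Nlgn2 to Nlgn1 ratio stayed between −1.56 and −0.86, in the Nlgn3 to Nlgn1 ratio between −1.54 and −1.07, in the Cbln2 to Cbln1 ratio between −1.80 and −0.27 and in the Lrrtm2 to Lrrtm1 ratio between −0.99 and −0.11. Members other than Cbln1 rested on 96 to 4351 reads in a sample, and Cbln1 on 0 to 397. With 3 mice a group, the exact permutation tests of 3 samples against 3 could not go below p = 0.10.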
